A study of Mus musculus with 2 samples.

Results

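Processed pseudogenes with long reads in mouse hippocampus, and the genes they were copied from, were examined in 2 libraries. The 136 pseudogenes were chosen by annotation and read total: an annotated gene of the type processed pseudogene (116) or transcribed processed pseudogene (20) on an autosome, with 20 or more reads summed over both libraries. They were 136 of the 18595 annotated genes that had a read and of the 660 autosomal processed pseudogenes that had one, while 9193 such pseudogenes are annotated. Because the read totals selected the members, their levels are given as a description. The libraries came from hippocampus, the memory-forming region of the brain, of adult mice aged 6 months with no treatment named, labelled male and of strain B6NCrl on the C57BL/6 background, although the labels' own field for sex was left without an entry. They form 1 group, biological replicates 1 and 2, each with its own biosample but with the same donor identifier, so differences between them measure the spread of 2 libraries and may be technical. Replicate 1 had 1330153 reads and replicate 2 had 1366252, so that 1 read corresponded to 0.752 and 0.732 CPM (reads scaled to a library of 1000000), and 3 reads, the most that a count of 0 allows, to 2.26 and 2.20 CPM.

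A processed pseudogene arises when a spliced messenger RNA is reverse transcribed by the machinery of LINE-1 elements and inserted elsewhere in the genome. The copy therefore lacks the introns of its parent and usually the parent's promoter, and over time it gathers mutations. Genes transcribed strongly in the germ line, above all those of ribosomal proteins and of the glycolytic enzyme Gapdh, have left many copies in the mouse genome. A long read covers much of a transcript at once, and each read here was assigned to 1 transcript model. Read counts are therefore taken as a measure of molecules and are not divided by length. Whether molecules of different length were read equally well was not tested. Where a copy and its parent are nearly identical, the gene to which a read was assigned is uncertain, and so is the level of each.

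What separates the leading members from their parents is often a single base, and the sequences below show it for the members with the most reads and for the differences that several copies share. Each pseudogene stretch is followed by the same stretch of the closest protein-coding transcript of GENCODE M21 (mm10), 5′ to 3′, with capitals at the bases that differ. Positions are counted from 1 at the first base of the closest gene's start codon, and a difference is written with the gene's base, the position and the pseudogene's base. Gm12033 (chr11:20335490-20335530, minus strand) differs from Gapdh by T504C, and Gm5559 (chr5:95862078-95862118, plus strand) differs from it by T385A. Gm10243 (chr6:48523653-48523693, plus strand) has G156A of Rpl35a. Gm13370 (chr2:24986299-24986339, plus strand) has T336C of Rpl21. The start of Rps4l (chr6:148354710-148354769, plus strand) shows the opposite case, a member with 7 differences from Rps4x in its first 60 coding bases.
Gm12033: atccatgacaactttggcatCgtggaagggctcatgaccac
Gapdh, beside Gm12033: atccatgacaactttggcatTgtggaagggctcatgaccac
Gm5559: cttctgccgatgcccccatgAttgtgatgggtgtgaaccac
Gapdh, beside Gm5559: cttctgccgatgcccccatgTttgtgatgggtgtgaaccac
Gm10243: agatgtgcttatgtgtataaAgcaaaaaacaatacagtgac
Rpl35a: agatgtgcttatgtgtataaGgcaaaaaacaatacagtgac
Gm13370: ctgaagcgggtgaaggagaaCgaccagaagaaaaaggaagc
Rpl21: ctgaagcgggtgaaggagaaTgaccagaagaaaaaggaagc
Rps4l: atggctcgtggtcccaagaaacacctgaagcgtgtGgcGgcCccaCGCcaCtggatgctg
Rps4x: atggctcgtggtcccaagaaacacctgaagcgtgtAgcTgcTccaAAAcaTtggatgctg

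The members held 15969 reads in replicate 1 and 17402 in replicate 2. That was 1.20% (exact Clopper-Pearson 95% interval 1.18% to 1.22%) and 1.27% (1.25% to 1.29%) of all reads, intervals that cover counting error only. They carried 94.8% and 95.7% of the reads of all autosomal processed pseudogenes. Reads per member over both libraries ran from 20 to 3660 with a median of 79, so the reads were concentrated on few copies: 7 members had 1000 or more, 58 had 100 or more and 45 had under 50. The top 3 held 29.8% and the top 12 held 55.1% of the members' reads. Just inside the minimum were BC002163, with 14 and 6 reads in replicates 1 and 2, and Gm13436, with 12 and 8. Just outside it, with 19 reads in all, were 3 genes, among them Gm10736 with 9 and 10 reads and Gm7666 with 8 and 11. Members were found on all 19 autosomes, most often on chromosomes 6 (16), 5 (13) and 7 (12).

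Copies of Gapdh, which oxidises glyceraldehyde 3-phosphate in glycolysis, headed the list and took nearly all reads of the Gapdh sequence. The gene itself (chr6:125161715-125166467) had 14 reads in replicate 1 and 29 in replicate 2, all of them spliced and spread over 15 models. Its 8 member copies together had 4324 and 5157 reads, or 3251 and 3775 CPM. Of all reads on the gene and these copies, the copies therefore held 99.68% (99.46% to 99.82%) in replicate 1 and 99.44% (99.20% to 99.63%) in replicate 2. Gm12033 (chr11:20335012-20336013) had 1701 and 1959 reads (1356 ± 110 CPM, SD, n = 2), and Gm5559 (chr5:95861714-95862715) had 1339 and 1691 (1122 ± 163 CPM). Gm12671 (chr4:91851668-91852669), with no difference from Gapdh over its annotated 1002 bases, had 528 and 660 reads (440.0 ± 60.9 CPM). Gm13394 (chr2:28933610-28934609), with A346C, had 549 and 621 (433.6 ± 29.6 CPM). The order of the first 2 copies was the same in both libraries, while Gm12671 and Gm13394 changed places. The other 4 copies ranged far lower, from 106 and 127 reads for Gm7336 through 59 and 47 for Gm10359 and 24 and 39 for Gm2606 to 18 and 13 for Gm12537. Gm10359 is as identical to Gapdh as Gm12671 is, over the same 1002 bases, and had fewer reads than Gm12671 in both libraries.

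**Figure D1:**
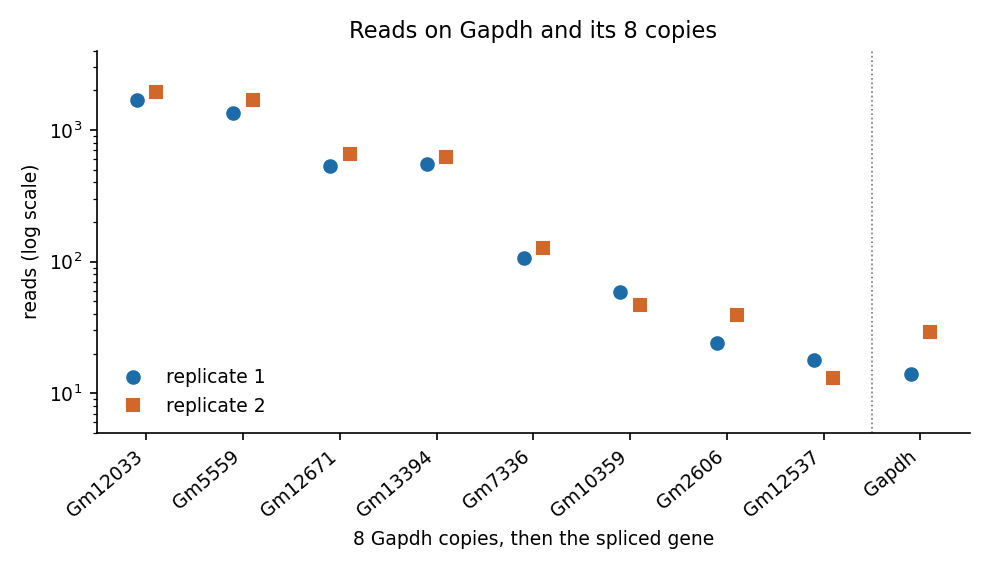
Reads in replicate 1 (circles) and replicate 2 (squares) on the 8 Gapdh copies among the members and, right of the dotted line, on the spliced Gapdh gene; the vertical axis is logarithmic. The leading copy, Gm12033, had 1701 and 1959 reads and the gene 14 and 29.

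Only a small part of the Gapdh copies of the genome held these reads. Of 206 annotated autosomal copies, 18 had a read and 188 had none. The 14 copies at least 99.5% identical to Gapdh included all 8 members, and 4 of the 14 had 0 reads. The 192 copies under 99.5% identity shared 11 reads over both libraries, on 8 copies. Gm12033 took 39.1% (37.6% to 40.5%) of the reads of all copies and Gapdh in replicate 1 and 37.7% (36.4% to 39.0%) in replicate 2. The annotated copies mostly span the coding sequence, so identity in the untranslated ends was not compared.

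Ribosomal protein genes were the largest source, with 74 of the 136 members and 49.3% of their reads (7866 and 8573). Their 55 parents, closest by name or sequence, had 29779 and 32776 reads. Gm10243 (chr6:48523518-48523850), a copy of Rpl35a of the large subunit, led them with 673 and 793 reads (543.2 ± 52.7 CPM), against 104 and 125 on Rpl35a itself. Gm9843 (chr16:76403251-76403652), identical to Fau, whose product is a fusion of a ubiquitin-like protein and the small-subunit protein S30, had 595 and 665 reads, against 679 and 852 on Fau. Gm7536 (chr3:24333068-24333511), identical to Rpl27a, had 420 and 493 reads, against 606 and 707 on the gene. In both libraries Gm10243 exceeded its gene, whereas Gm9843 and Gm7536 stayed below theirs.

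Further copies of ribosomal protein genes completed the 12 members with most reads. Rps2-ps10 had 279 and 355 reads (234.8 ± 35.4 CPM), against 1010 and 1316 on Rps2. Rps23-ps1 (chr3:37714740-37715164), identical to Rps23, had 297 and 327 reads (231.3 ± 11.4 CPM), against 568 and 618. Gm12191 (chr11:49678710-49679057), a copy of Rpl30 with the difference G96A, had 291 and 327 reads (229.1 ± 14.5 CPM). Rpl30 had 100 and 105, so this copy held 74.4% and 75.7% of the reads of the pair. Rpl37rt (chr5:115102923-115110268), named as a retrotransposed copy of Rpl37, had 293 and 274 reads (210.4 ± 13.9 CPM), against 1349 and 1556 on Rpl37. The levels of Rps2-ps10, Rps23-ps1, Gm12191 and Rpl37rt lay so close that their order was not the same in both libraries.

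The remaining families were small. Chaperones and isomerases gave 3 members with 10.6% of the members' reads, nearly all from Gm10123 (chr9:96895658-96896147), a copy identical to Ppia over 490 bases. Ppia encodes cyclophilin A, a peptidyl-prolyl isomerase. Gm10123 had 1620 and 1635 reads (1207 ± 15 CPM), against 2187 and 2231 on Ppia. The second of the family, Gm15459, had 120 and 111 reads beside the 8480 and 10824 of its closest gene Hspa8, the constitutive Hsc70 chaperone. The 2 libraries gave nearly the same level of Gm10123, and Ppia was above it in each.

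The list of the respiratory chain and of the Slc25 and Vdac mitochondrial carrier and channel families gave 7 members with 566 and 520 reads. No member was a copy of an Slc25 or Vdac gene. Gm12338, a copy of the cytochrome c oxidase subunit gene Cox7c, led with 184 and 149 reads, against 1071 and 991 on Cox7c. Gm10231 and Gm10175 are both identical to Atp5g2, which encodes subunit c of ATP synthase, and had 116 and 116 and 68 and 76 reads. Translation factors gave 2 members, led by the Eef1g copy Gm4366 with 41 and 42 reads. Cytoskeletal genes gave 2, led by the gamma-actin (Actg1) copy Gm12715 with 95 and 130. Chromatin and RNA-binding proteins gave 5, led by the Hmgb1 copy Gm15387 with 60 and 36. Ubiquitin and SUMO genes gave 4, led by the Ube2v2 copy Gm6565 with 22 and 26. Rps27a was listed both there and with ribosomal proteins, and was counted with the latter. Its copies Gm8430, with 63 and 76 reads, and Rps27a-ps2, with 31 and 42, were above Gm6565. No member came from ferritin, calmodulin or the mitochondrial genome. The 31 others held 6.30% of the members' reads and were led by Mpc1-ps, a copy of the mitochondrial pyruvate carrier gene Mpc1, which was not on the list of carriers, with 140 and 132 reads.

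For 47 members the name gives a parent, and in most of these pairs the parent had more reads. The share of the pseudogene in the reads of the pair had a median of 9.98% in replicate 1 and 10.3% in replicate 2, and ran from 1.41% (Oaz1-ps) to 86.7% (Rpl17-ps5) over both libraries. It was under 10% in 22 pairs and between 10% and 50% in 22 others. The 95% intervals of the 2 libraries overlapped in 46 of the 47 pairs. In pairs with few pseudogene reads these intervals were wide: Trmt112-ps2, with 12 and 29 reads, held 14.8% (7.90% to 24.4%) and 29.6% (20.8% to 39.7%). Only 3 pseudogenes in replicate 1 and 4 in replicate 2 were above their parents. The exceptions in both were the copies of Rpl17, a protein of the large subunit: the gene had 20 and 18 reads, Rpl17-ps5 had 121 and 127, Rpl17-ps9 had 57 and 56, and Rpl17-ps3 had 43 and 44. Each of the 3 copies differs from Rpl17 at 2 positions and none of these is shared: G183A and T294C in Rpl17-ps5, C131T and C367T in Rpl17-ps9, and G81T and G125A in Rpl17-ps3. The fourth, in replicate 2, was Rpl21-ps9, but 145 of its 146 reads lay outside the annotated copy, as described below.

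**Figure D2:**
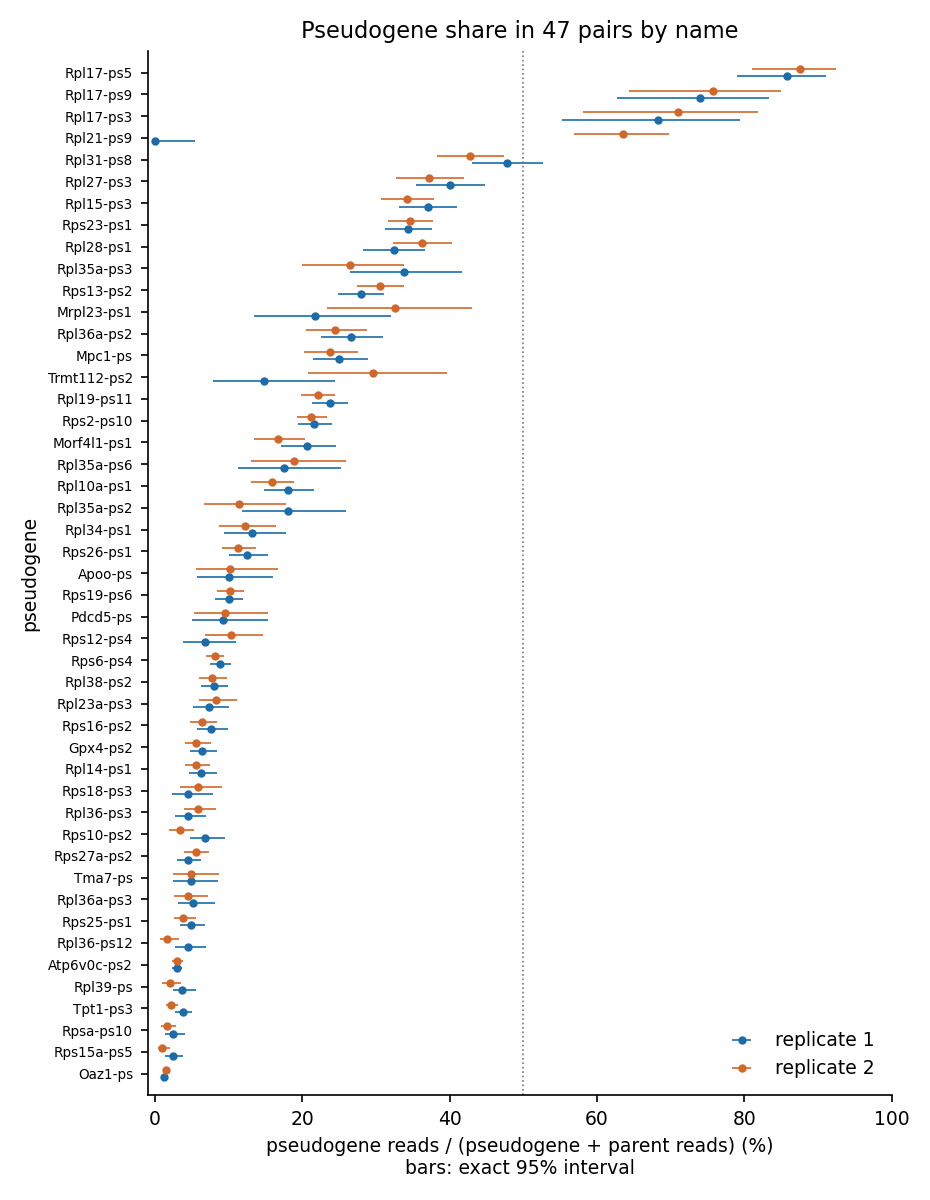
Share of the pseudogene in the summed reads of pseudogene and parent (%, horizontal axis) for the 47 members whose name gives a parent, in replicate 1 (blue) and replicate 2 (orange), with exact 95% intervals; the dotted line marks equal reads. The 3 Rpl17 copies lie above 50% in both libraries, and Rpl21-ps9 moves from 0 reads in replicate 1 to above 50% in replicate 2. Nearly all reads of Rpl21-ps9 lie outside its annotated copy.

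Among the 8 named pairs with most pseudogene reads, shares were moderate and close between libraries. They were 21.6% and 21.2% for Rps2-ps10, 34.3% and 34.6% for Rps23-ps1, and 23.7% and 22.1% for Rpl19-ps11. Rps13-ps2 held 27.9% and 30.5%, Rpl15-ps3 37.0% and 34.3%, and Rpl31-ps8 47.8% and 42.8%. Rpl28-ps1 held 32.4% and 36.2% and Rpl27-ps3 40.05% and 37.2%. In each of these 8 pairs the intervals of the 2 libraries overlapped, and whether the 2 shares of a pair differ was not tested. All 8 parents encode ribosomal proteins, and all 8 had more reads than the copy.

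Sequence gave a closest gene to the members without a parent in their name. Of the 136 members, 132 matched a protein-coding transcript over at least 50% of their own length, and these pointed to 105 genes. Name and sequence gave the same gene in 46 of the 47 named pairs; the other, Rpl36a-ps3, is closest to Rpl36al. Over the 132 pairs by sequence the median pseudogene share was 11.7% in replicate 1 and 11.2% in replicate 2, with a range of 0.209% to 98.8% over both. When copies of the same gene were summed, they exceeded the gene in 9 of the 105 cases in both libraries. They included Gapdh, Rpl35a, Rpl21, Rpl27, Rpl30, Rpl17, Atp5g2 and the nuclear exporter of transfer RNA, Xpot. The Rpl21 sum, 309 and 534 reads against 66 and 84, includes in replicate 2 the reads of Rpl21-ps9, nearly all outside that copy. Gm13370 alone had 206 and 247. The 4 Rpl35a copies had 771 and 883 reads against 104 and 125, and the 3 Rpl17 copies had 221 and 227 against 20 and 18. Xpot was nearly level, with 24 and 22 reads against 27 and 23 on Gm7389.

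**Figure D3:**
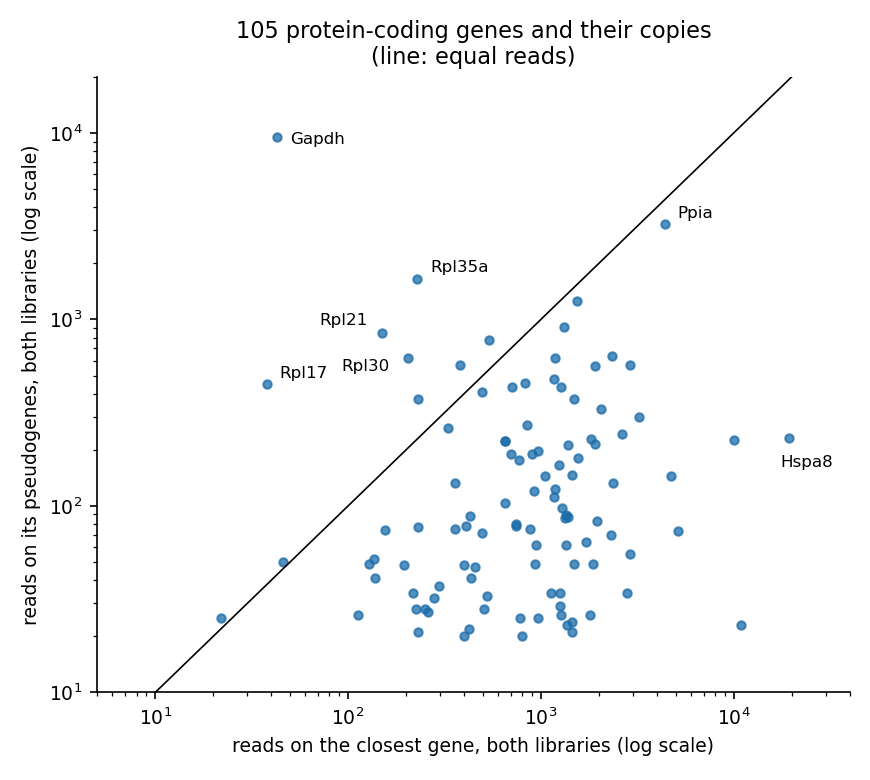
Reads over both libraries on 105 protein-coding genes (horizontal axis) and on the members closest to them in sequence (vertical axis), both on log scales; the line marks equal reads. Most genes lie below the line, and Gapdh, with 8 copies, lies farthest above it.

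Identity to a spliced gene marked the members off from the other annotated copies. The median identity over the aligned part was 99.74% for members, 98.2% for the 496 matched copies with 1 to 19 reads and 89.5% for the 7451 with none. Over 99% identity lay 115 members, of which 40 were identical over all their aligned stretches. Another 11 lay above 98% and up to 99%, and 6 at 98% or below. Among the identical ones, Gm15725 lies inside its closest gene, Lrrc58, on the same strand. Its match may therefore be to that place itself and not to a parent elsewhere, and it is counted in all comparisons by sequence. Among annotated copies over 99% identical, 115 of 545 (21.1%) were members, against 17 of 7534 (0.226%) at lower identity. Of the 545 copies, 256 had no reads. The genes closest to those 256 had a median of 60 reads, and the genes closest to the 115 members over 99% identical had a median of 768. Counts by identity are a description, because read totals chose the members, and how the assignment of reads between near-identical sequences bears on them was not tested.

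**Figure D4:**
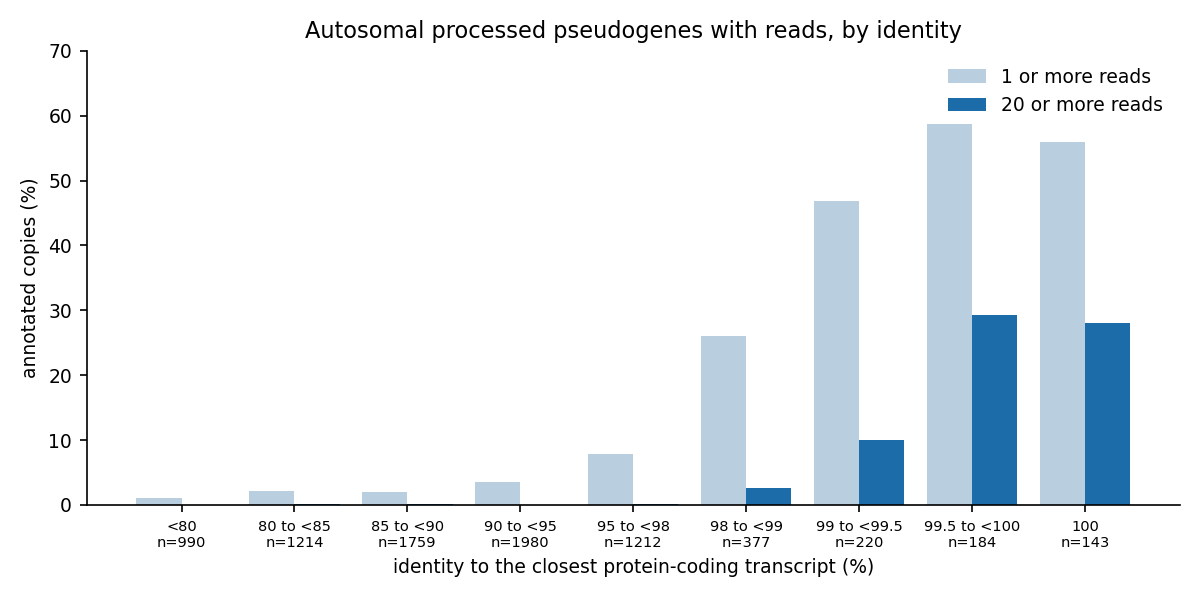
Share of annotated autosomal processed pseudogenes (%, vertical axis, from 0) with at least 1 read (light) and with 20 or more reads (dark), by identity to the closest protein-coding transcript; n is the number of annotated copies in each class. The share with 20 or more reads is 0.165% from 95% to under 98% identity and 29.3% from 99.5% to under 100%.

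Single bases still set most members apart from their parents. In the single best aligned stretch, 41 of the 132 members (the 40 above and Mpc1-ps, which differs outside that stretch) had no difference and no gap, 35 had 1 difference, 19 had 2 and 34 had 3 or more. A median of 93.7% of a matched member's 25-base words also occur in the closest gene, and for 36 members all do. Where a difference falls inside the annotated copy, copies of one gene sometimes have it in common. All 4 Rpl35a members (Gm10243, Rpl35a-ps3, Rpl35a-ps6 and Rpl35a-ps2) carry G156A, as do all 14 annotated autosomal Rpl35a copies of 95% identity or more. Of the 4 Rpl21 members, Gm13370, Gm10163 and Gm10240 carry both T336C and T432C. Among the 48 annotated autosomal Rpl21 copies of 95% identity or more that cover these positions, 41 have the first and 39 the second. Of these, only the 3 members had 20 or more reads. None of the copies with the gene's base did, but they were only 6 at the first position and 9 at the second. Rpl21-ps9, at 93.4% identity, was not among the copies compared. Both Hmgb1 members carry A21G.

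The reading frame of the parent was often kept in the annotated copy. A frame from start to stop codon of at least 95% of the closest gene's codons was present in 81 of the 132 members (61.4%), against 5.03% of the 7451 matched copies with no reads. Among copies over 99% identical these shares were 63.5% and 25.4%. Gm12033, Gm5559 and Gm12671 keep all 333 codons of Gapdh. A copy annotated without its start or stop codon counts as short even where its bases match: Gm10123 is identical to Ppia over 490 bases, yet the longest frame inside its annotated span has 30 codons against 164.

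The diverged members, whose reads can be told from those of the parent by many bases, were few. Rps4l, 80.1% identical to Rps4x over 86.0% of its length with 152 differences, had 96 and 133 reads. It shares 1.74% of its 25-base words with Rps4x, which had 847 and 968 reads, and keeps a frame of 262 codons against 263. Gm8292 (97.2% identical to Rps24) had 43 and 34 reads, and Gm7389 (96.4% to Xpot) had 27 and 23. AC154707.1 (87.1% to the zinc-finger gene Zfp995) had 11 and 14, and Gm13687 (85.7% to the mitoribosomal gene Mrps36) had 14 and 7. Rpl21-ps9 (93.4% to Rpl21) is described below. The 4 members with no closest gene over 50% of their length were 2810025M15Rik, A930017M01Rik, B230303A05Rik and Magef1, with 34 to 65 reads in all. Rps4l was the highest of the diverged members whose reads lay inside the annotated gene.

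The rule did not use exon structure directly, and the members' reads were nearly all unspliced. The gene types it chose are those of copies without introns, so for reads on annotated models this largely follows from the rule. At least 50% of reads lay on models of a single exon in 130 of the 136 members (95.6%), and in 105 every read did. Among the other 9776 annotated genes with 20 or more reads this held for 16.2%, and among the 9538 protein-coding ones for 15.4%. Their closest genes were the reverse, with reads mostly spliced in 103 of 105 and a median of 0.20% of reads on single-exon models. Annotated models took 99.2% and 98.3% of the members' reads. Since such a model is listed with its annotated ends, where individual reads began and ended could not be seen. Another annotated gene on the same strand overlapped 20 members, 40 overlapped one on the opposite strand, and 77 overlapped neither.

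The 6 mainly spliced members were low, and 4 of them are no near-identical copies. All 37 and 24 reads of 2810025M15Rik lay on its annotated model of 3 exons. A930017M01Rik had 28 and 28 reads, of which 25% were single-exon, and B230303A05Rik had 36 and 29, of which 18.5% were. AC154707.1 had 11 and 14 reads, with 12% single-exon. Gm10095, 99% identical to BC004004, had 19 and 13 reads, all on an annotated model of 2 exons. Gm7964, 99.2% identical to Hnrnpk, had 9 and 17 reads, 15 of the 26 on unannotated models of 2 exons. The 6 members had between 25 and 65 reads in all, below the members' median of 79.

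Levels of most members lay within 1.5-fold between the libraries. All 136 members passed the minimum of 10 reads for testing, and Fisher's exact test per gene with Benjamini-Hochberg adjustment over 11891 annotated genes called 5 members (3.68%) different between the libraries, against 5.95% of all genes tested. A single member was higher in replicate 1 (background 2.56%) and 4 were higher in replicate 2 (background 3.38%). These shares lie near or below the background. With edgeR's scaling factors (TMM) as totals, the split of all calls moved from 305 higher in replicate 1 and 402 higher in replicate 2 to 352 and 305, and 3 members were called, against 5.53% of all genes; DESeq2 totals also gave 3 members, against 5.52%. The test compares 2 libraries and no conditions. The level was within 1.5-fold in 109 members, and in 55 of the 58 with 100 or more reads (94.8%, against 91.9% of the 4476 genes of that depth).

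**Figure D5:**
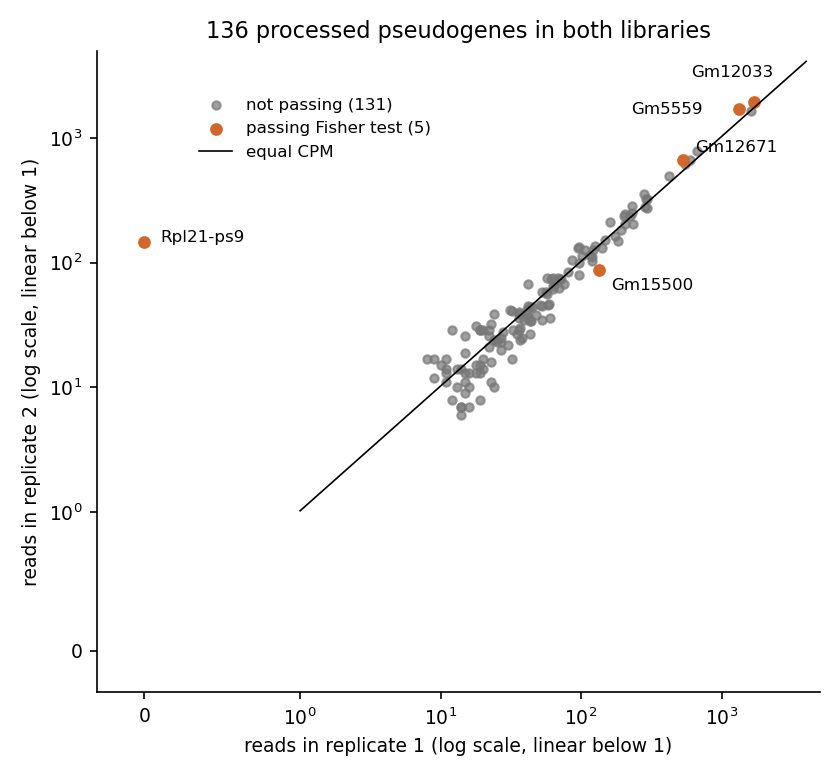
Reads of each of the 136 members in replicate 1 (horizontal) and replicate 2 (vertical), on log scales that are linear below 1 read; the line marks equal CPM. The 5 members that passed Fisher's exact test are labelled, and Rpl21-ps9 stands alone with 0 reads in replicate 1.

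The 5 called members were 3 Gapdh copies with small differences, Gm15500 and Rpl21-ps9. Gm5559 had 1339 and 1691 reads, a ratio of replicate 1 to replicate 2 of 0.813 (95% interval 0.756 to 0.874), Fisher's exact test, adjusted p = 1.26e-06. Gm12033 had a ratio of 0.892 (0.835 to 0.952), adjusted p = 0.0136 by the same exact test, and Gm12671 one of 0.822 (0.731 to 0.923), exact adjusted p = 0.0179. All 3 are Gapdh copies, and their log2 ratios of -0.30, -0.17 and -0.28 compare with a median of -0.05 over all genes tested and 0.04 over the members. Gm12033 and Gm12671 did not pass with TMM or DESeq2 totals. Gm15500, a copy identical to the ribosomal protein gene Rpl5, was the one member called higher in replicate 1, with 134 and 88 reads, a ratio of 1.56 (1.19 to 2.07) and an exact adjusted p of 0.0261. With edgeR's exact test, only Rpl21-ps9 of the members was called (adjusted p = 3.07e-18), against 0.42% of all genes. That test adds a spread of 16.08%, which edgeR names the biological coefficient of variation. It was estimated from these same 2 libraries taken as 1 group, so it includes the difference being tested. Whether this spread is biological was not tested.

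The call of Rpl21-ps9 rests on reads that lie outside the annotated copy. It had 0 reads in replicate 1 and 146 in replicate 2, at least 47.4-fold higher in replicate 2 against the floor of 3 reads (Fisher's exact test, adjusted p = 5.25e-41). Of the 146 reads, 145 lay on a single-exon model of 3450 bases at chr2:156388063-156391512, plus strand, which begins 841 bases beyond the end of the annotated pseudogene (chr2:156386741-156387222). In replicate 1 the same stretch on the same strand, chr2:156388065-156391512, held 363 reads that were listed under an unannotated antisense locus. The stretch thus had reads in both libraries, listed under different gene names. It lies within 2900097C17Rik on the opposite strand, which had 765 and 684 single-exon reads there. No source used here gives the strand setting of the counting, so sense and antisense reads of this place cannot be told apart with certainty. Without reads outside the annotated gene, Rpl21-ps9 is no member.

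Other reads outside the annotated span were rare. In 134 of 136 members (98.5%) at least 50% of reads lay inside it, against 99.6% of the other annotated genes, which for annotated models holds by construction. The second exception was Gm8325, a Ube2v1 copy with 24 and 10 reads, of which 18 and 8 were on an unspliced model at chr3:60877165-60878857 that the copy covers only in part. Mpc1-ps had 34 of its 132 reads in replicate 2, and none in replicate 1, on a model 16 bases downstream of the copy. With reads inside the annotated genes only, Fisher's exact test again called 5 of 134 members, against 5.96% of 11810 genes, with Mpc1-ps (higher in replicate 1) in place of Rpl21-ps9.

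The tissue was checked with marker lists. Summed levels were 3475 and 4173 CPM for neuronal markers, 976 and 1030 for markers of the hippocampal fields and 4907 and 6644 for oligodendrocytes, with every marker detected. The choroid plexus list stood apart, at 13935 CPM in replicate 1 and 316 in replicate 2, with Kcne2 and Otx2 at 0 reads in replicate 2. Replicate 1 therefore held RNA with choroid plexus markers that replicate 2 nearly lacked, and its part in the differences between libraries was not tested.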

How the data were processed

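Long-read RNA was measured in 2 hippocampus libraries of 1 group, grouped by the labels' replicate numbers. The authors deposited unnormalized counts, in long reads assigned to each transcript model, with the number of exons and the length of each model. Models were named with TALON on GENCODE M21 and mm10, per the file headers and deposited notes; no source used here names the aligner, versions, platform or strand setting. Depth was 1330153 and 1366252 reads, which gives a floor of 2.26 and 2.20 CPM.

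Counts were summed per gene over all model classes, and CPM used all reads of a library. Model positions came from the deposited annotations. The closest gene of each of 9193 annotated pseudogenes was found with blastn 2.17.0 (megablast, word size 16, e-value 1e-10, plus strand, up to 3 stretches) among GENCODE M21 protein-coding transcripts, by the best match. With no second group, libraries were compared by Fisher's exact test (scipy 1.17.1) over genes with at least 10 reads, Benjamini-Hochberg level 0.05, tested on simulated data first. The simulated counts had counting error only, so that check does not cover further spread between libraries. Alternatives were edgeR 4.0.16 (TMM, exact test), DESeq2 1.42.0 size factors, other read minimums, model classes and overlaps, and leaving out a library. Intervals are exact Clopper-Pearson at 95%.

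The members, lists and rules were chosen with earlier results of these data known. Named are the 12 members with most reads, the called members, the 8 named pairs with most reads, mainly spliced members, genes beside the minimum and the leader of each family; diverged members, the copies of Gapdh, Rpl17, Rpl35a and Rpl21, other genes with shared differences, copies above their gene and those outside their span, Trmt112-ps2 and Gm15459 were added after their values were seen. The 12 processed pseudogenes of 20 or more reads on the X chromosome were left out by the rule. Results on 1 further parent gene are not reported here.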

Additional observations from a re-analysis of the deposited data

How the results depend on the processing

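Of 54 alternative values, 44 kept the main result within its spread or within 1.5 times a count, and 10 moved. Members called between libraries fell from 5 to 3 with TMM totals (657 of 11891 genes in all), to 3 with DESeq2 size factors (656) and to 1 with edgeR's exact test (50), against 707 genes in the main test. The median share in named pairs (10.1% over both libraries) was 10.5% without genomic and incomplete reads, 18.4% with 50 or more reads per member, and 9.98% to 10.8% when 1 library was left out. The median share in sequence pairs (11.2%) was 19.4% with 50 or more reads and 11.5% to 11.7% when 1 library was left out. The summed share of reads (1.24%) was 1.18% with 50 or more reads. A higher read minimum drops the members with few reads, which raises the medians by construction. The number of members was 183 with 10 or more reads, 91 with 50 or more, and 132 with reads inside the gene only. It was 135 to 137 when 1 library was left out, but not at the main read minimum. That minimum, applied to 1 library, could only lower the number, so a lower one must have been used, and its value is not given here. The counts and medians with 1 library left out therefore do not show whether the results hold at the main minimum. The Gapdh copies' share, 99.5% over both libraries, was 99.4% to 99.7%; this result, the count over 99% identity and their alternatives were added after the data had been seen. No paired analysis was possible because there is 1 group of 2 libraries. Depth limits the 45 members with under 50 reads, and the 5 called members had 146 or more.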

Other observations

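Processed pseudogenes on the X chromosome, which belong to no comparison above, showed similar patterns in their values. There were 12 with 20 or more reads. Rpl21-ps15 had 554 and 640 reads in replicates 1 and 2, against 66 and 84 on its parent by name, Rpl21, so it was above the parent in both libraries. Rpl3-ps1 had 352 and 424 reads and stayed below Rpl3, which had 2843 and 3165. Rpl17-ps8 had 46 and 49 reads, near the values of the autosomal Rpl17-ps9 and Rpl17-ps3 and above the 20 and 18 of Rpl17. Gm14586 followed with 157 and 161 reads and Gm6472 with 104 and 119. Gm14539 had 42 and 17.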
